A study of Mus musculus with 8 samples.

Results

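Cxcl12, a secreted chemokine, and Cxcr4, the receptor through which it signals, were followed in the posterior part of mouse embryos that lacked the homeodomain transcription factor Cdx2. All non-control probes whose gene name in the array files is Cxcl12 or Cxcr4 were taken, which gave 4 of 41174 probes, 2 for each gene. The pair was selected on the null over wild type ratios measured in these same samples, so their values are given as a description with no test. The groups were Cdx2 null mutant embryos at 4/5 somites against wild type embryos at 4/5 somites, and Cdx2 null mutant embryos at 7/8 somites against wild type embryos at 7/8 somites, all of the strain C57Bl6J/CBA. RNA came from 20 embryos for each genotype and stage, which was read as 1 null and 1 wild type pool per stage, or 4 pools in all. The labels do not say whether the arrays titled bio1 and tech1 carried the same RNA, and they were treated as repeats of the same pools. The labels do not describe the null allele. The pieces of tissue ran from the youngest somite back to where the allantois starts. The 2 pools of a stage were hybridised together on 4 Agilent arrays with 2 colours, with the null pool in Cy3 on 2 arrays and in Cy5 on the other 2, so the standard deviations (SD) given for a stage are technical on that reading.

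Cxcl12 binds Cxcr4, a receptor coupled to inhibitory G proteins, and draws migrating cells such as germ cells and blood progenitors towards its source. Ackr3 (named Cxcr7 in the array files) binds the same ligand, does not couple to G proteins in the usual way, and takes Cxcl12 up from around the cell. The splice variants of Cxcl12 share their first exons and differ at the 3′ end, which is where array probes usually lie.

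The probes are shown by their first 30 of 60 bases, 5′ to 3′ and from the array files, because the 2 Cxcl12 probes report different stretches of the gene and differ in signal.
Cxcl12 probe A_51_P172502: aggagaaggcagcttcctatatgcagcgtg
Cxcl12 probe A_52_P685021: gaattaatcataaacggaagtttaaatgag
Cxcr4 probe A_52_P585124: aggaagaaactgaacattccagaatgtgtg
Cxcr4 probe A_52_P565353: catattatgtggggatcagcatcgactcct
On build mm9, Cxcl12 probe A_51_P172502 lies at chr6:117131227-117131286 (+ strand) and is described in the files by transcript variant 3, with 2 RefSeq transcripts listed. Cxcl12 probe A_52_P685021 lies at chr6:117124474-117124533 (+ strand), 6753 bases nearer to the start of the gene, and is described by transcript variant 1. Cxcr4 probe A_52_P585124 lies at chr1:130485079-130485138 and A_52_P565353 at chr1:130485659-130485718, both on the - strand, and they begin at bases 1451 and 871 of the transcript. The files give no exon or untranslated region for any of them.

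In each channel 46.5% to 58.9% of the probes exceeded background clearly, and all 4 probes of the pair were among the 21907 kept. The mutated gene was lower in the null pool at both stages, with a log2 ratio of -1.23 ± 0.12 (SD, n = 4 arrays) for Cdx2 at 4/5 somites and -1.55 ± 0.05 at 7/8 somites. Its probe A_52_P177490 was still well above background in the null pool on 4 of 4 arrays at each stage. The mean level was 10.28 in null and 11.52 in wild type channels at 4/5 somites, and 9.85 and 11.40 at 7/8 somites. The labels do not say whether that probe lies in a part of the gene that the null allele changes. Of 8 markers of caudal end progenitors all 8 were measured, so markers of posterior tissue were present as a set. Their summed level was 14.0 to 14.40 log2 units in null channels and 14.29 to 14.51 in wild type channels. Fgf8 and Wnt3a were the brightest in that sum, while Wnt5a was dim and well above background in 5 of 8 null channels.

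Cxcl12 RNA was far lower in null than in wild type tissue at both stages. At 4/5 somites, probe A_51_P172502 gave log2 ratios of null over wild type of -1.86, -2.0, -2.04 and -2.03 on the 4 arrays, a mean of -1.98 ± 0.08 (SD, n = 4 arrays), or a level 3.95-fold higher in wild type. At 7/8 somites the 4 arrays gave -2.63, -2.36, -2.72 and -2.28, a mean of -2.50 ± 0.21, or a level 5.66-fold higher in wild type. The null pool was lower on 8 of 8 arrays, and this probe had the third lowest mean ratio of the 21907 kept probes at each stage. It was the only one of the 4 probes at least 2-fold lower in the null pool with the same sign on all 4 arrays, at 4/5 as at 7/8 somites. Over all kept probes the share past that limit was 0.137% at 4/5 somites and 0.205% at 7/8 somites, and since the pair was selected on this contrast, nothing is read from that. In pooled tissue, fewer cells that make Cxcl12 and less Cxcl12 RNA per cell cannot be told apart.

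**Figure D1:**
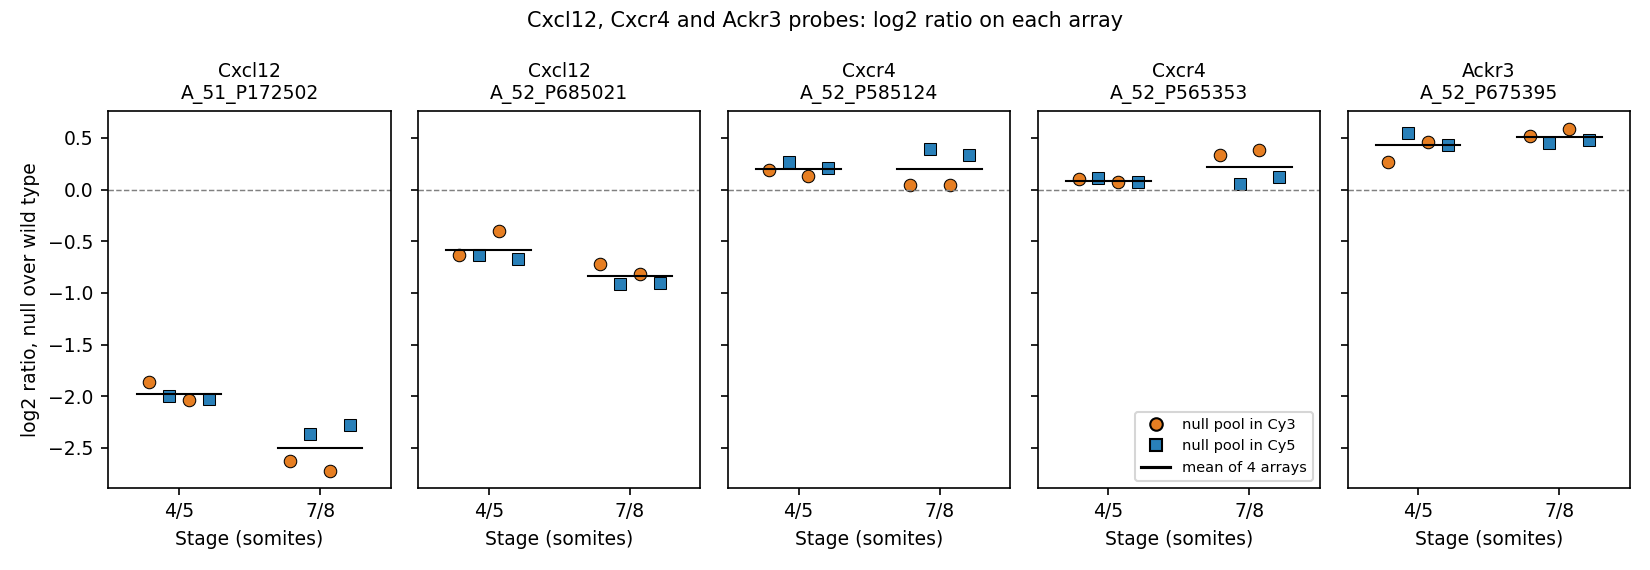
Log2 ratio of null over wild type (vertical axis) on each array at 4/5 and 7/8 somites for the 2 Cxcl12 probes, the 2 Cxcr4 probes and Ackr3. Circles are arrays with the null pool in Cy3, squares arrays with it in Cy5, and lines the mean of 4 arrays. Both Cxcl12 probes lie below 0 on every array and both Cxcr4 probes above it.

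The same probe was well above background in every channel, so the Cxcl12 transcript it reports was lower in the null pools and still measured there. In log2 intensity units its level was 8.90 to 9.11 in null channels at 4/5 somites, against 10.86 to 11.14 in wild type channels. At 7/8 somites it was 9.31 to 9.58 in null channels, against 11.78 to 12.14 in wild type channels. The ranges of the 4 pools did not overlap, and their order from low to high was null at 4/5, null at 7/8, wild type at 4/5 and wild type at 7/8 somites. Each genotype had more of the transcript at the later stage. The level at 7/8 somites exceeded that at 4/5 somites by 0.41 log2 units in null pools and by 0.92 in wild type pools. The scanner's own processed signals gave 0.35 in null pools and 0.72 in wild type pools for the same step.

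The deficit in Cxcl12 was accordingly deeper at 7/8 than at 4/5 somites. The mean ratios of the stages differed by -0.52 log2 units, and the 4 arrays of one stage did not overlap with those of the other. The difference was -0.72 between arrays with the null pool in Cy3 and -0.31 between arrays with it in Cy5. At 7/8 somites the ratio itself was -2.68 with the null pool in Cy3 and -2.32 with it in Cy5, against -1.95 and -2.01 in the same 2 dye orders at 4/5 somites. Each stage had 1 pool per genotype, so stage and pool cannot be told apart.

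**Figure D2:**
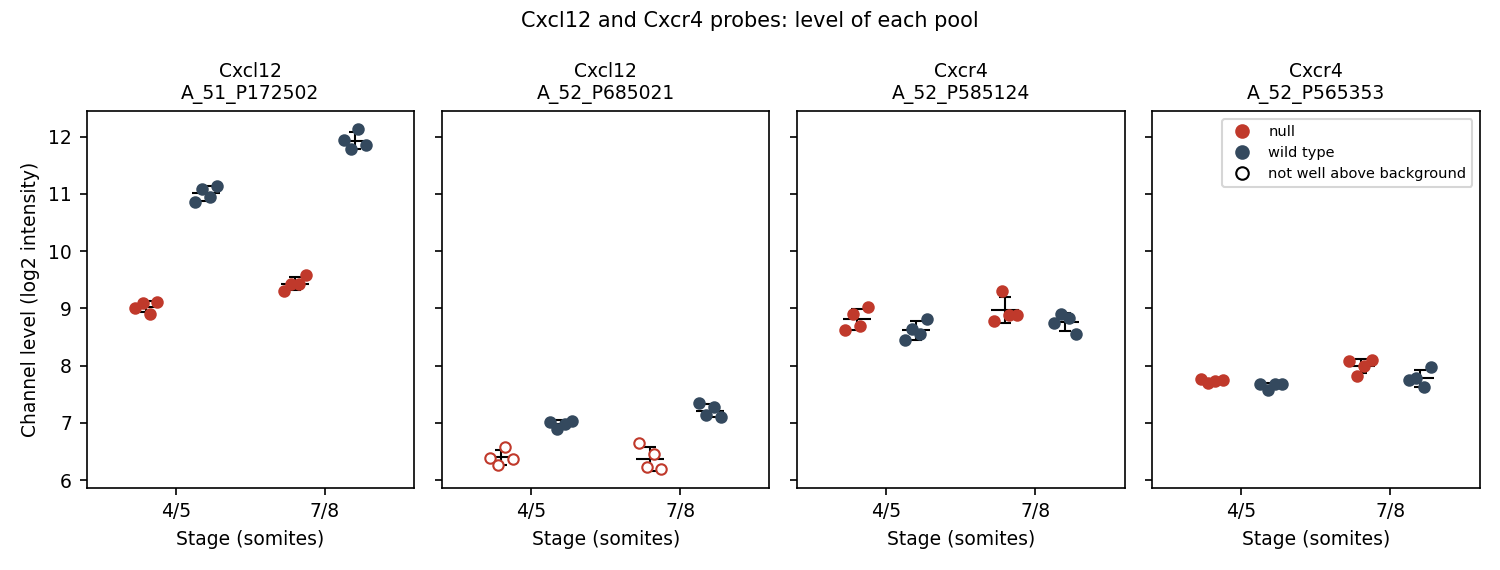
Level of each Cxcl12 and Cxcr4 probe (vertical axis, log2 intensity after normalization within and between arrays) in null channels (red, left) and wild type channels (dark, right) at 4/5 and 7/8 somites. Points are the 4 arrays, bars the mean ± SD, and open points are channels not well above background, which occur only for Cxcl12 probe A_52_P685021 in the null pools. Levels are comparable within a probe and not between probes.

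The second Cxcl12 probe was also lower in the null pools on 8 of 8 arrays, but the size of the difference could not be measured. At 4/5 somites A_52_P685021 gave log2 ratios of -0.63, -0.63, -0.40 and -0.67 (mean -0.58 ± 0.12), and at 7/8 somites -0.72, -0.91, -0.82 and -0.90 (mean -0.84 ± 0.09). Its signal was well above background on 0 of 4 arrays in the null pool at either stage, and on 4 of 4 arrays in the wild type pool. The lowest signal well above background on an array then stood in wherever the null signal was lower still. On that basis wild type exceeded null by 1.46-fold at 4/5 somites and by 1.74-fold at 7/8 somites. That stand-in was taken over all probes, and the difference was smaller without background correction, so these folds are no strict lower limits. Mean levels in wild type pools were 6.98 log2 units at 4/5 and 7.21 at 7/8 somites, with no overlap between the stages. In null pools they were 6.40 and 6.38, with overlap.

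The ratio of this probe depended on how the background was removed. The scanner's own log ratio, which rests on background-subtracted signals, gave -2.39 ± 0.27 at 4/5 somites and -2.37 ± 0.44 at 7/8 somites, values that rest on a null signal not well above background and are no measured fold. The offset of 50 intensity units used for all other values here pulls the ratios of dim probes towards 0. With an offset of 16 the means were -0.90 and -1.21, and with no background correction -0.36 and -0.50. For the brighter probe A_51_P172502 the same settings gave -1.86 to -2.28 at 4/5 somites and -2.40 to -2.64 at 7/8 somites. With no measured fold for A_52_P685021, the sizes of the 2 probes cannot be compared. A difference between the transcript variants and this effect of signal strength cannot be told apart. The stage difference of A_52_P685021 was -0.25 after the offset, with no overlap between the arrays of the stages, and 0.02 in the scanner's log ratio.

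**Figure D3:**
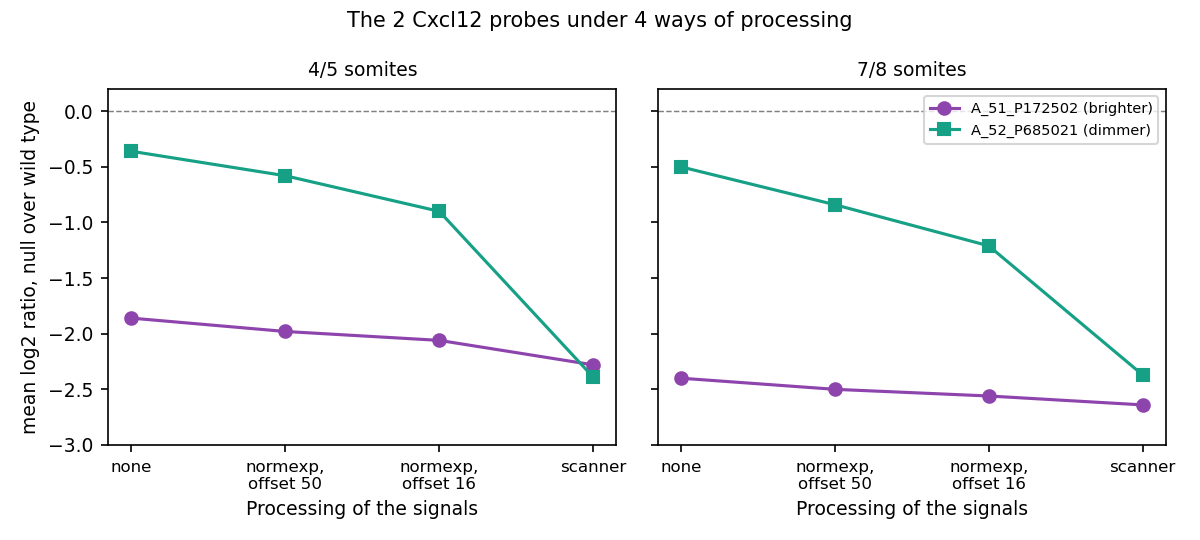
Mean log2 ratio of null over wild type (vertical axis) of the 2 Cxcl12 probes at 4/5 somites (left) and 7/8 somites (right) under 4 ways of processing the signals. The brighter probe A_51_P172502 stays between -1.86 and -2.64, while the dimmer probe A_52_P685021 goes down from -0.36 without background correction to -2.39 in the scanner's log ratio.

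Cxcr4, the receptor, showed no comparable shortfall in the null pools. Probe A_52_P585124 gave 0.19, 0.27, 0.13 and 0.21 at 4/5 somites (mean 0.20 ± 0.06) and 0.04, 0.39, 0.04 and 0.33 at 7/8 somites (mean 0.20 ± 0.19). Probe A_52_P565353 gave 0.10, 0.11, 0.07 and 0.07 at 4/5 somites (mean 0.09 ± 0.02) and 0.33, 0.05, 0.38 and 0.12 at 7/8 somites (mean 0.22 ± 0.16). After loess the null pool was slightly higher on 8 of 8 arrays for each probe, by at most 1.16-fold as a stage mean. In the scanner's log ratio, array 1 of 4/5 somites gave -0.08 for A_52_P585124 and array 4 of 4/5 somites gave -0.01 for A_52_P565353, while array 2 of 7/8 somites gave 0.00 for the second of these probes. At 7/8 somites the ratio followed the dye, and in opposite directions for the 2 probes. With the null pool in Cy3, A_52_P585124 gave 0.04 and A_52_P565353 gave 0.36, and with it in Cy5 they gave 0.36 and 0.08. The mean over both dye orders is therefore the value to read, and it was 0.20 for one probe and 0.22 for the other.

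The levels of Cxcr4 in the 4 pools lay close together. Probe A_52_P585124 averaged 8.81 ± 0.19 log2 units in null and 8.61 ± 0.16 in wild type channels at 4/5 somites, and 8.96 ± 0.23 in null and 8.76 ± 0.15 in wild type channels at 7/8 somites. From high to low the order was null at 7/8, null at 4/5, wild type at 7/8 and wild type at 4/5 somites, and the channels of every neighbouring pair overlapped. Probe A_52_P565353 averaged 7.73 ± 0.03 in null and 7.65 ± 0.05 in wild type channels at 4/5 somites, and 8.00 ± 0.12 in null and 7.78 ± 0.15 in wild type channels at 7/8 somites. Its null and wild type channels overlapped at 7/8 somites and missed each other narrowly at 4/5 somites, with 7.69 to 7.77 in null and 7.58 to 7.68 in wild type. The null level exceeded its 4/5 somite value at 7/8 somites by 0.26, without overlap, and the wild type level by 0.13, with overlap. The stage difference of the ratio was 0.00 for A_52_P585124 and 0.13 for A_52_P565353, and the arrays of the stages overlapped for both.

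Ackr3, the other receptor of Cxcl12, rose in the null pools. Probe A_52_P675395 (chr1:92111803-92111862, mm9) had log2 ratios of 0.27 to 0.55 at 4/5 somites (mean 0.43 ± 0.12) and of 0.45 to 0.59 at 7/8 somites (mean 0.51 ± 0.06), higher in null on 8 of 8 arrays. Its level averaged 10.34 in null and 9.91 in wild type channels at 4/5 somites, and 10.13 in null and 9.62 in wild type channels at 7/8 somites. Over both stages the mean was 0.47 (SE 0.09, n = 2 stage means, limma adjusted p = 0.000423 over all 15489 genes tested). The adjusted p stayed between 3.15e-05 and 0.0427 in limma under 20 alternative settings. In level, Ackr3 was lower at 7/8 than at 4/5 somites in both genotypes, with differences of -0.21 in null and -0.29 in wild type pools and no overlap, whereas A_51_P172502 gave more Cxcl12 at the later stage.

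Most other chemokines and receptors did not exceed background clearly enough to be kept. Of 35 other chemokine genes 7 were measured, and 1 rose and 0 fell, with a median ratio of 0.00 against -0.006 over all genes tested. The limma test called 6.55% of all genes tested higher and 4.54% lower in null. The gene that rose was Cx3cl1, a membrane-bound chemokine, with 0.26 ± 0.06 at 4/5 and 0.63 ± 0.09 at 7/8 somites (mean 0.45, SE 0.09, limma adjusted p = 0.00178). Its call was lost in limma in 3 of 20 alternative settings (no background correction, median centring and no filter on dim probes), with an adjusted p of up to 0.118. Of 22 receptors other than Cxcr4 6 were measured, and Ackr3 was the only one called (median 0.01). The 5 without a call were dim, with mean levels of 6.44 to 7.07 log2 units. The offset pulls such ratios towards 0, so values near 0 do not show that these receptors were unchanged. The 6 measured chemokines without a call, Cxcl14, Cxcl16, Ccl19, Ccl25, Ccl27a and Ccl28, had mean ratios between -0.06 and 0.12. Among them Cxcl14, Cxcl16 and Ccl28 were as dim as those receptors, with mean levels of 6.57 to 6.95.

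Binding partners and signalling components of the axis gave 3 rises and 1 fall among 19 measured of 22 genes, Ackr3 included, with a median of 0.03. Over all genes tested 6.55% rose and 4.54% fell by limma, and 1 fall among 19 genes is near that share. Dpp4, a peptidase that cleaves Cxcl12 at its N terminus, rose by 0.56 (SE 0.09, limma adjusted p = 5.46e-05), and a second Dpp4 probe gave 0.44. Levels of Dpp4 were 9.45 in null and 8.85 in wild type channels at 4/5 somites, and 8.97 in null and 8.45 in wild type channels at 7/8 somites. Arrb1, an arrestin that binds activated receptors, rose by 0.41 (limma adjusted p = 0.00197), but its second probe gave 0.01. With the mean of its kept probes the ratio of Arrb1 was 0.21 and the call was lost (limma adjusted p = 0.132), as it was with median centring and with arrays that had the null pool in Cy3 alone. Gnai1, an inhibitory G protein subunit, fell by 0.49 (limma adjusted p = 0.000244), with -0.04, -0.36 and -0.26 on 3 further probes, and lost its call with median centring. The mean of its kept probes was -0.29 (limma adjusted p = 0.0393). The other G protein subunits, kinases and small GTPases of the list had no call, among them Gnai2 at -0.25 and Rac1 at -0.21, and Mif, another ligand of Cxcr4, had a mean of -0.15.

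**Figure D4:**
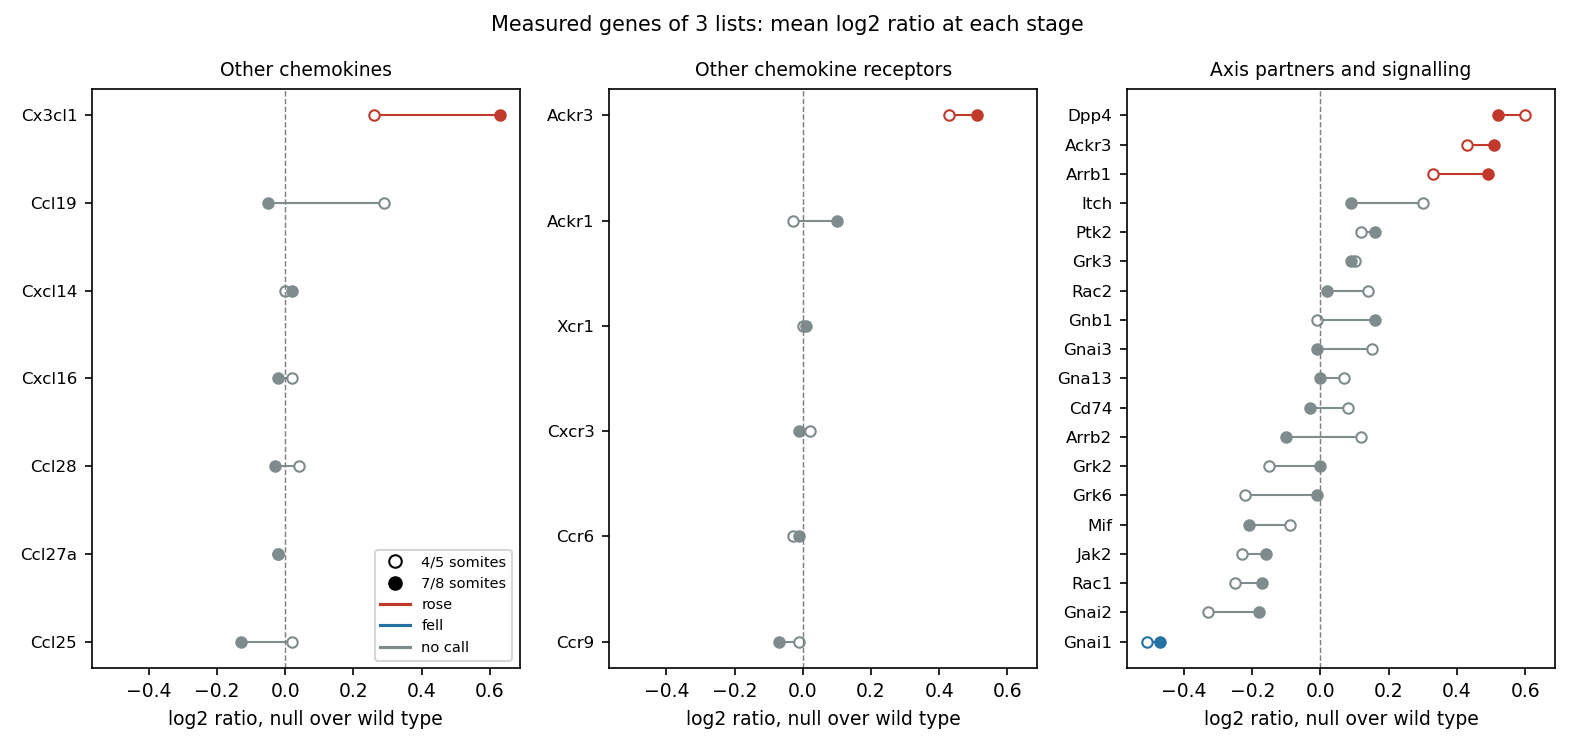
Mean log2 ratio of null over wild type (horizontal axis) of the measured genes of 3 lists, with an open point for 4/5 and a filled point for 7/8 somites joined by a line. Red genes rose and blue genes fell by limma (adjusted p at most 0.05), and grey genes had no call. Cx3cl1, Ackr3, Dpp4 and Arrb1 lie to the right of 0 at both stages and Gnai1 to the left.

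Markers of several cell types also differed between the pools, and their part in the Cxcl12 and Ackr3 values was not tested. Over all genes tested limma called 6.55% higher and 4.54% lower in null, and nothing is read from a list with only 1 called gene. In the endothelium list, with 11 of 12 genes measured, 4 fell and 1 rose, and the median ratio was 0.00 at 4/5 and -0.29 at 7/8 somites. Its summed level was 12.21 to 12.44 log2 units in null and 12.40 to 13.02 in wild type channels. Etv2, a transcription factor of the first endothelial cells, gave -0.70 at 4/5 and -1.33 at 7/8 somites (mean -1.01, limma adjusted p = 3.49e-07). Kdr, a receptor for vascular growth factor, had -0.55 and -1.22 (mean -0.88, limma adjusted p = 3.48e-06). Flt1 was the gene that rose, with 0.27 at 4/5 and 0.39 at 7/8 somites (mean 0.33, limma adjusted p = 0.0124). Pecam1 was not measured, and Cdh5, a cadherin of vessels, had no call at -0.14. The 6 genes without a call ran from -0.26 (Sox18) to 0.27 (Lmo2), so the list did not move in 1 direction.

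In the primordial germ cell list 2 of 8 measured genes rose and 0 fell, Dppa3 by 0.84 and Alpl by 0.34, with a list median of 0.09. The 6 genes without a call ran from -0.25 (Kit, lower in null on 8 arrays) to 0.25 (Tfap2c). The summed level of the list was 12.16 to 12.36 in null and 11.98 to 12.14 in wild type channels, while Prdm14 and Nanos3 were not measured. Of the other lists, somite markers had 3 rises in 5 measured genes, led by Meox1 at 0.92 and Tcf15 at 0.58. The median ratio of that list was 0.88 at 4/5 and 0.09 at 7/8 somites, so the rise was mostly at the earlier stage. Meox1 gave 1.22 at 4/5 and 0.62 at 7/8 somites, and Tcf15 gave 1.03 and 0.14 ± 0.30. The summed level of the list was 11.95 to 12.46 in null and 11.52 to 11.86 in wild type channels. Presomitic mesoderm markers had 1 rise and 2 falls in 7, with Msgn1 at -0.60 and Dll3 at -0.37. Gut endoderm markers had 4 rises and 2 falls in 11, with Krt19 at -1.37 and Spink1 at 0.74. Allantois markers had 2 rises and 1 fall in 6, with Snai2 at 1.27 and Bmp4 at -0.49, while Tbx4 and Vcam1 were not measured. Their summed level was 12.28 to 12.74 in null and 11.76 to 12.14 in wild type channels. Snai2 was the brightest gene in that sum, at 11.63 in null and 10.33 in wild type channels at 4/5 somites and 11.96 and 10.74 at 7/8 somites. Caudal end progenitor markers had 3 falls in 8, with Cyp26a1 at -0.82 and T at -0.34. The ratio of T was -0.61 at 4/5 and -0.07 at 7/8 somites. Lateral plate and intermediate mesoderm markers had 1 fall in 8 (Osr1, -0.78). Neural tube markers had 1 rise in 4 (Nkx6-1, 0.56), and blood and immune markers 1 fall in 4 (Hbb-bh1, -0.39). The white blood cell markers Ptprc, Csf1r and Itgam were not measured.

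The genes whose levels ran most like Cxcl12 probe A_51_P172502 across the 16 channels were Sparcl1 (Pearson r = 0.99), Hoxd4 (0.972), Sv2b (0.971), Hoxa10 (0.971) and Rgn (0.969). The 16 channels come from 4 pools and pairs of them share an array, so these correlations describe the order of the pools and carry no p. By the size of the ratio on the 8 arrays the nearest genes were Nepn, Vwf, Saa3, Sparcl1 and Cdx2, with root mean square differences of 0.60, 0.66, 0.72, 0.75 and 0.88 log2 units. Sparcl1, a secreted matrix protein gene, stood in both groups, with ratios of -1.23 at 4/5 and -1.79 at 7/8 somites. Nepn differed from Cxcl12 in its course, with -2.73 at 4/5 and -2.15 at 7/8 somites. For Cxcr4 probe A_52_P585124 the highest correlations were with Elk4, Arid1b, Cdk14, Habp4 and Ss18 (0.895 to 0.906), and the nearest ratios were those of Fam20b, Fkbp9, Cdk14, Golm1 and Cryz (0.04 to 0.06).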

How the data were processed

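Members and gene lists were chosen with earlier results of these data known. RNA was kept in RNAlater, isolated with a RiboPure kit and amplified linearly, per the labels' protocols. Spot and background brightness are deposited intensity values, per the file headers. Per the file headers, the scanner's log ratio is a log10 value with Cy5 on top, which was turned to log2 of null over wild type. It equalled the deposited series matrix, a log10 ratio of null over wild type with median 0 in every column, at 45018 of 45018 spots on all 8 arrays (tolerance 1e-05). The scanner software was Agilent Feature Extraction, version 9.5.3 per the submitters' processing notes and 10.5.1.1 per the file headers.

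Mean signals were corrected with normexp (offset 50) and loess within arrays in limma 3.58.1 (R 4.3.3), with control spots at weight 0. Spots marked for an uneven background took the array median (58 on array 1 of 4/5 somites), and 1184 outlier spots (0.341%) were left out. No spot was saturated (0). Channel levels came from Aquantile. Probes were kept when well above background in 1 genotype on at least 3 of 4 arrays of a stage, and the brightest stood for a gene. Genes were tested in limma on the 2 stage means, two-sided, with Benjamini-Hochberg adjustment (1 residual and 22.13 prior degrees of freedom), so p-values measure the spread between the pools of 2 stages and lean on a spread pooled over genes. The fit was tested on simulated data. Names came from RefSeq (GRCm38.p6) for 25263 probes. The text names both genes by every probe, Cdx2, Ackr3, called genes of the chemokine and axis lists, the 2 largest called changes of each marker list, and the 5 most similar genes per measure, and other genes were named after their values were seen.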

Additional observations from a re-analysis of the deposited data

Results flagged for a closer look

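On array 3 of 4/5 somites, with the null pool in Cy3, Cxcl12 probe A_52_P685021 gave a log2 ratio of -0.40, apart from the other 3 arrays of that stage, which lay between -0.67 and -0.63. Its gap to the nearest array, as a share of the whole range, was above Dixon's critical value for 4 values. Chance alone passes this limit in about 1 of 20 groups. The null channel was not well above background there, as on the other arrays, and the cause was not tested.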

How the results depend on the processing

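As stage means, each Cxcl12 probe stayed lower in null and each Cxcr4 probe higher under every alternative run. The ratios and levels named next moved by more than the SD between arrays. The counts after them were judged by a limit of 1.5 times. Among the counts of called genes, 2553, 1860, 1830, 1778 and 1588 stayed within it, as did the 2 rises in the axis list. The cause of a move was not tested except where the offset itself shrinks dim ratios. Without background correction Cxcl12 A_51_P172502 was -1.86 and Cxcr4 A_52_P565353 0.06 at 4/5 somites, and Cxcl12 A_52_P685021 was -0.36 at 4/5 and -0.50 at 7/8 somites. With an offset of 16 the last probe was -0.90 and -1.21. The scanner's log ratio gave -2.28, 0.15, 0.10 (A_52_P585124) and -2.39 at 4/5 somites, -2.37 for A_52_P685021 at 7/8 somites and 0.02 for its stage difference. With uneven backgrounds kept, 4/5 somites gave -1.79, 0.06 and -0.41 for A_51_P172502, A_52_P565353 and A_52_P685021. In the scanner's processed signals the level at 7/8 minus 4/5 somites was 0.42 in null and 0.31 in wild type for A_52_P565353, and 0.56 in both genotypes for A_52_P685021. Genes called by limma numbered 1718, against 524 without background correction, 467 with median centring, 2553 with slide as a block, 1860 with an offset of 16, 1830 from arrays with null in Cy5, 1778 with the scanner's log ratio, 971 with uneven backgrounds kept, 768 without the filter on dim probes, 1112 from arrays with null in Cy3, and 952 to 1588 when 1 array was left out (952 without array 2 of 7/8, 1027 without array 4 of 7/8 and 1036 without array 2 of 4/5 somites). Called chemokines numbered 0 without background correction, with median centring and without the dim filter. Rises in the axis list numbered 2 in place of 3 with median centring, from arrays with null in Cy3 and with the mean of all kept probes. Falls in the axis list numbered 0 with median centring, 3 from arrays with null in Cy5 and 4 with slide as a block. In all, 338 values under alternatives moved by no more than the SD between arrays or, for counts, by no more than 1.5 times. Among these, Cxcr4 changed with the dye order, to 0.04 for A_52_P585124 with null in Cy3 and 0.08 for A_52_P565353 with null in Cy5, both at 7/8 somites. No paired analysis was possible because null and wild type were the 2 channels of the same arrays, so every ratio is already within an array and the 4 arrays of a stage repeat the same 2 pools. The number of pools limits every statement here, and signal over background limits Cxcl12 A_52_P685021 in null.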
